A study of Mus musculus with 6 samples.

Results

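The genes described here were 45 interferon-stimulated genes, given as a fixed list of mouse gene symbols and read from the liver RNA-seq counts of mice in which Rnf10 mRNA was silenced. Each of the 45 matched 1 of the 55487 Ensembl identifiers in the count table, and all 45 were among the 14046 genes that passed the filter on low counts and were tested. They were grouped as 20 antiviral effectors, 5 nucleic acid sensors, 4 transcription factors, 6 GTPases, 8 genes of the ISG15, ubiquitin and ADP-ribose system and 2 genes of secreted proteins.

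Livers were collected from 17-week-old male wild-type C57BL/6J mice that were fed a normal chow diet and had received subcutaneous injections of GalNAc-siNC or GalNAc-siRnf10, with 3 mice in each group (called control and silenced mice below) and 1 library per mouse. The study names the conjugate GalNAc-siRnf10-2. GalNAc is a sugar ligand for the asialoglycoprotein receptor of hepatocytes, and it was attached in both groups to a chemically modified siRNA, so the control mice carried a ligand and a modified duplex as well. No untreated or vehicle-treated liver was part of this comparison, and the dose behind these livers is not given in the sources used here. The study performed this RNA-seq experiment to look for off-target effects of the siRNA against Rnf10, an E3 ubiquitin ligase. The libraries held between 26854377 and 33058645 counts, and all carried 1 batch label. RNA came from whole liver, so fewer cells of a type and less RNA per cell cannot be told apart.

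Type I interferons signal through a receptor made of IFNAR1 and IFNAR2 and the kinases JAK1 and TYK2. A complex that holds STAT2 and IRF9 then binds interferon-stimulated response elements (ISREs) in promoters, whereas interferon gamma acts mainly at gamma-activated sites (GAS) and through IRF1. The induced genes encode proteins that bind viral RNA, degrade it, block translation or trafficking, or sense further nucleic acid, and many are expressed at a low level in uninfected tissue.

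Rnf10 mRNA was lower in the silenced mice. Its normalized counts (counts scaled by edgeR's TMM factors to the mean library) were 3869, 4536 and 4040 after GalNAc-siNC and 1738, 1820 and 1793 after GalNAc-siRnf10, which was 57.0% lower (log2 fold change -1.22, standard error 0.0715). The groups did not overlap, and the exact two-sided permutation test gave p = 0.1, below which a comparison of 3 mice with 3 cannot go.

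In the GalNAc-siRnf10-treated livers, 17 of the 45 interferon-stimulated genes were lower and 0 were higher once p-values were adjusted over all tested genes (threshold 0.05, Benjamini-Hochberg, quasi-likelihood F test of edgeR). The genes that fell included all 4 of the transcription factors (Irf1, Irf7, Irf9 and Stat2), the GTPase genes Ifi47 and Irgm1, the sensor genes Zbp1 and Dhx58, and the effector genes Oasl1, Ifi44 and Helz2. The falls were modest, from 15.4% for Stat2 to 41.2% for Ifi47, with a median of 26.4%, and no member changed by a log2 fold change of 1 or more in either direction. Several genes of the same list that are commonly used as readouts of interferon, among them Ifit1, Ifit3, Isg15, Rsad2, Mx1, Usp18 and Cxcl10, did not pass the threshold.

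Among all tested genes, 14.0% were called at this threshold, with 7.28% lower and 6.71% higher, against 37.8% of the members. The members were chosen with earlier results of these data known, so this difference is not an independent test of the list. A negative log2 fold change, called or not, was found in 36 of 45 members and in 49.7% of all tested genes. The median log2 fold change was -0.22 over the members and 0.0022 over all tested genes. For 25 members all 3 silenced mice were below all 3 controls, against 16.4% of all tested genes, and for 1 member, Cxcl10, they were all above, against 16.5%. Without adjustment, 23 members had a p under 0.05 in the edgeR test. The same share over all tested genes was not computed, so this count has no background beside it. No normalization, filter or tool that was tried called any member higher.

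The pattern was seen in each mouse. The median member stood at 102%, 97.0% and 98.5% of the GalNAc-siNC mean in the 3 control mice and at 84.3%, 88.3% and 85.4% in the 3 mice with silenced Rnf10. Over all tested genes, the same median lay between 99.7% and 100% in every mouse, which the TMM scaling largely sets in advance. The values of the control mice are relative to a mean that includes those mice. The lowest of the 6 libraries was a GalNAc-siRnf10-treated mouse for 13, 14 and 9 members and a GalNAc-siNC-treated mouse for 3, 6 and 0 members, in the order of the mouse numbers.

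**Figure D1:**
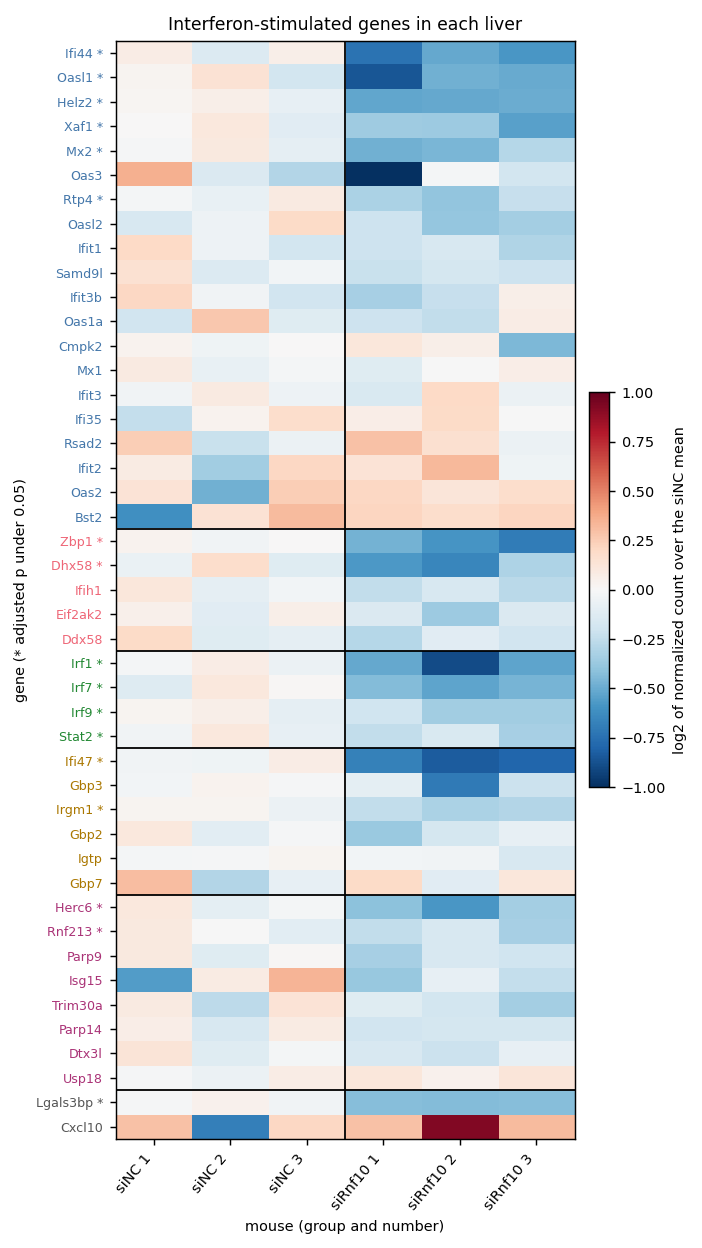
Normalized count of each of the 45 interferon-stimulated genes (rows, grouped by class and marked with * where the adjusted p was under 0.05) in each of the 6 livers (columns), as the log2 of its ratio to the GalNAc-siNC mean. Blue cells fill most of the 3 GalNAc-siRnf10 columns, and the red rows there include Bst2, Cxcl10, Oas2 and Usp18. Rsad2 and Ifit2 are red there except in mouse 3.

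The number of members called depended on how many GalNAc-siRnf10-treated mice were used. It was 10 without mouse 1, 8 without mouse 2 and 9 without mouse 3 of that group, and between 15 and 18 when a GalNAc-siNC-treated mouse was left out. Over all tested genes, 1053, 1128 and 1128 were called without these 3 GalNAc-siRnf10-treated mice, against 1965 with all 6 libraries. Ifi47, Irf1, Oasl1, Zbp1, Helz2, Irf7 and Lgals3bp were called in each of the 15 other fits that were run at the same threshold, whereas Mx2 was called in 7, Rtp4 in 9, Stat2 and Xaf1 in 11 and Rnf213 in 12 of them. 1 library stood apart: in GalNAc-siNC-treated mouse 1, genes shorter than 1500 bases were lower than in the other mice of the group (median log2 difference -0.26) and genes of 5000 bases or more were higher (0.078). Without that mouse, 18 members were called, the same 17 and Isg15, while the count over all tested genes rose from 1965 to 2864. The median log2 fold change of the members was then -0.17, against -0.22 with all 6 libraries and -0.24 with a correction for length and GC content. That mouse was the highest of the 6 for 16 members, and control mice 2 and 3 were for 12 and 10.

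**Figure D2:**
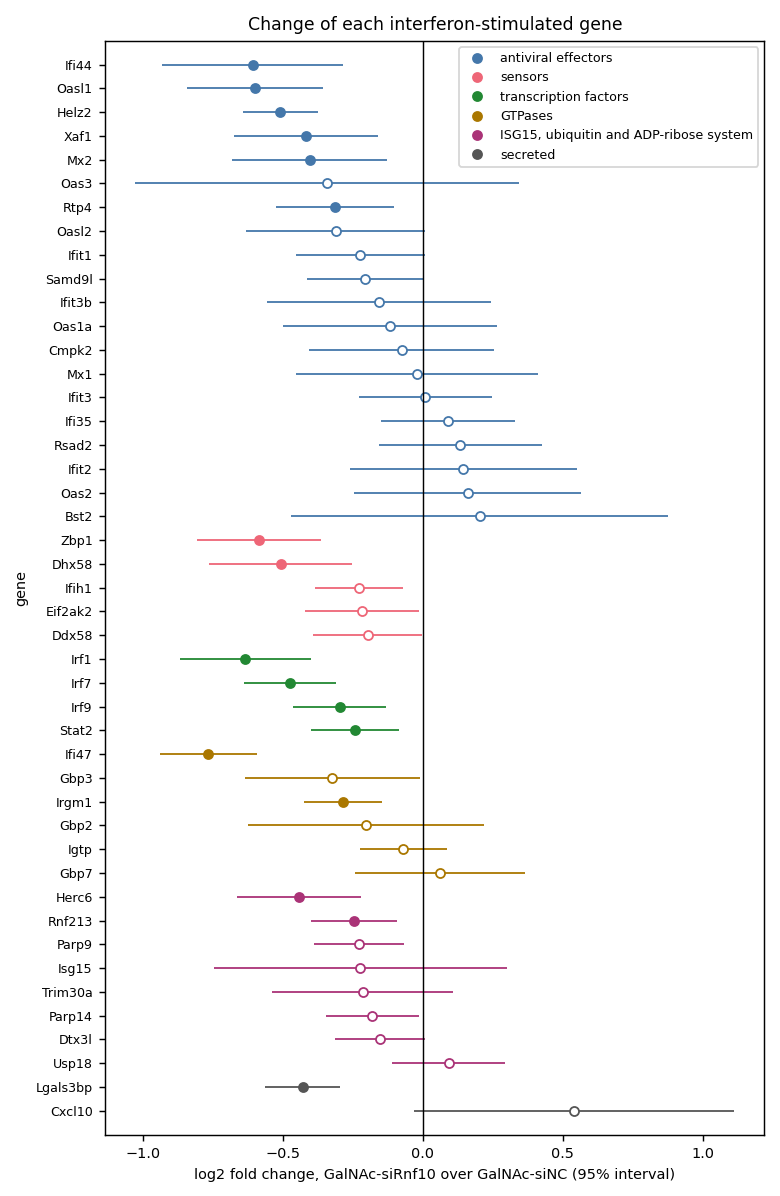
Log2 fold change of each member, GalNAc-siRnf10 over GalNAc-siNC, with its 95% interval. Filled circles passed an adjusted p of 0.05 and open circles did not; all 17 filled circles lie left of 0, from -0.77 for Ifi47 to -0.24 for Stat2, and the open circles lie on both sides of 0.

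The DNA around the start of transcription was read for the members from RefSeq promoters of GRCm38.p6, each 300 bases long, from 250 before to 50 after the start. The table held 36 of the 45 members; Dhx58, Mx1, Mx2, Oas2, Parp9, Parp14, Rtp4, Usp18 and Zbp1 were not read. The core of the ISRE was searched as GAAANNGAAA and the GAS as TTCNNNGAA, both on either strand. An ISRE core was present in 19 of the 36 members (52.8%), against 3.99% of the 27025 genes in the table and 3.88% of the tested genes in it. A GAS match was present in 8 of the 36 members (22.2%), against 9.55% of all genes in the table. It was present in 1 of the 13 called members that could be read and in 7 of the 23 that were not called.

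The ISRE core was present in 2 of the 13 called members that could be read, Stat2 and Irgm1, and in 17 of the 23 that were not called. Read the other way, 2 of 19 members with the core and 11 of 17 without it were called lower, with median log2 fold changes of -0.20 and -0.42. With the length and GC correction, which was chosen after seeing the data, 6 of the 19 and 11 of the 17 were called, and without silenced mouse 2 or mouse 3 the counts were 0 of 19 and 7 of 17. Among all tested genes in the table, 6.55% of those with the core and 7.59% of those without it were called lower. The members with the core were measured somewhat less precisely, with a median standard error of 0.141 against 0.105 on the log2 scale, and the part of this in the difference was not tested. The difference was smaller for a shorter form, AANNGAAA, which is the core's last 8 letters and was tried after the first search: it was present in 8 of 13 called and 20 of 23 uncalled members and in 26.7% of all genes in the table. These are descriptions of letters in a fixed window, given without a test, and a missing match says nothing of sites elsewhere.

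The stretches printed here are examples from both sets. They read 5′ to 3′ on the strand of the gene, and capitals mark the ISRE core (in either direction, with overlapping matches joined) in members that were not called:
Isg15, chr4:156200871-156200900: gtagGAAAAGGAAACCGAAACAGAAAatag
Ifit1, chr19:34640775-34640804: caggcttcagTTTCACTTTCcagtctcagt
Ifit3, chr19:34583397-34583426: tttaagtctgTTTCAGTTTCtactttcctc
Ifit3b, chr19:34607793-34607822: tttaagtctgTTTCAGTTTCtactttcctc
Rsad2, chr12:26456553-26456582: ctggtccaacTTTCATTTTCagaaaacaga
Gbp2, chr3:142620594-142620623: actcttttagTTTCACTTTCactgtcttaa
Cxcl10, chr5:92349083-92349112: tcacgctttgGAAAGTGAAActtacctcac
Bst2, chr8:71537580-71537609: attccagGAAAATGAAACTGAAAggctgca

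Isg15 carried 3 overlapping cores, the first beginning 78 bases before the start, and the Ifit3 and Ifit3b stretches were the same letters. Of the members that fell, Irgm1 and Stat2 had an ISRE core and Irf1 a GAS match, which is in capitals in its line:
Irgm1, chr11:48871428-48871457: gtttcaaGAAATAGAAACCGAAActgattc
Stat2, chr10:128270266-128270295: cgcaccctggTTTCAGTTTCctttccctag
Irf1, chr11:53769914-53769942: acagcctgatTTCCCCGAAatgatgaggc

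Other members that fell had only the shorter form in their window, which is in capitals here:
Oasl1, chr5:114923096-114923125: caaatgttgagAATCGAAActtaacagcac
Ifi44, chr3:151749944-151749972: tacagagTTTCAGTTTTCGTTTcccgagc
Ifi47, chr11:49076395-49076424: tacattttgtaAAAAGAAActcatttttat

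Of the 13 called members that were read, Irf7, Irf9, Herc6 and Rnf213 held no match to any of the 3 forms.

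All 4 transcription factor genes among the members fell. Irf1 (ENSMUSG00000018899, chromosome 11, 53770014 to 53778374, plus strand) encodes the factor that carries much of the response to interferon gamma. Its normalized counts were 615, 655 and 599 with GalNAc-siNC and 437, 336 and 433 with GalNAc-siRnf10, a fall of 35.6% (log2 fold change -0.63, standard error 0.111, adjusted p = 0.000773). The lowest control mouse was well above the highest silenced mouse. An annotated gene on the opposite strand overlaps 796 bases of Irf1, but it held about 12 counts per library.

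Irf7 (ENSMUSG00000025498, chromosome 7, 141262706 to 141266481, minus strand) encodes the factor that amplifies the type I response. It had 1413, 1661 and 1559 normalized counts with GalNAc-siNC and 1143, 1073 and 1118 with GalNAc-siRnf10, which was 28.0% lower (log2 fold change -0.47, adjusted p = 0.000452), again with no overlap between groups.

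Stat2 and Irf9 encode subunits of the complex that binds the ISRE. Stat2 had 2270, 2509 and 2204 normalized counts in the control mice and 1962, 2091 and 1851 in the silenced mice (log2 fold change -0.24, adjusted p = 0.0373). Irf9 had 1277, 1305 and 1174 against 1090, 985 and 986 (log2 fold change -0.30, adjusted p = 0.0176). Both falls were under 20% and their adjusted p rose above 0.05 when certain silenced mice were left out, for Stat2 any 1 of the 3 (or control mouse 2) and for Irf9 mouse 2 or mouse 3. A stretch of 123 bases of Irf9 is shared with Rnf31 on the same strand.

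**Figure D3:**
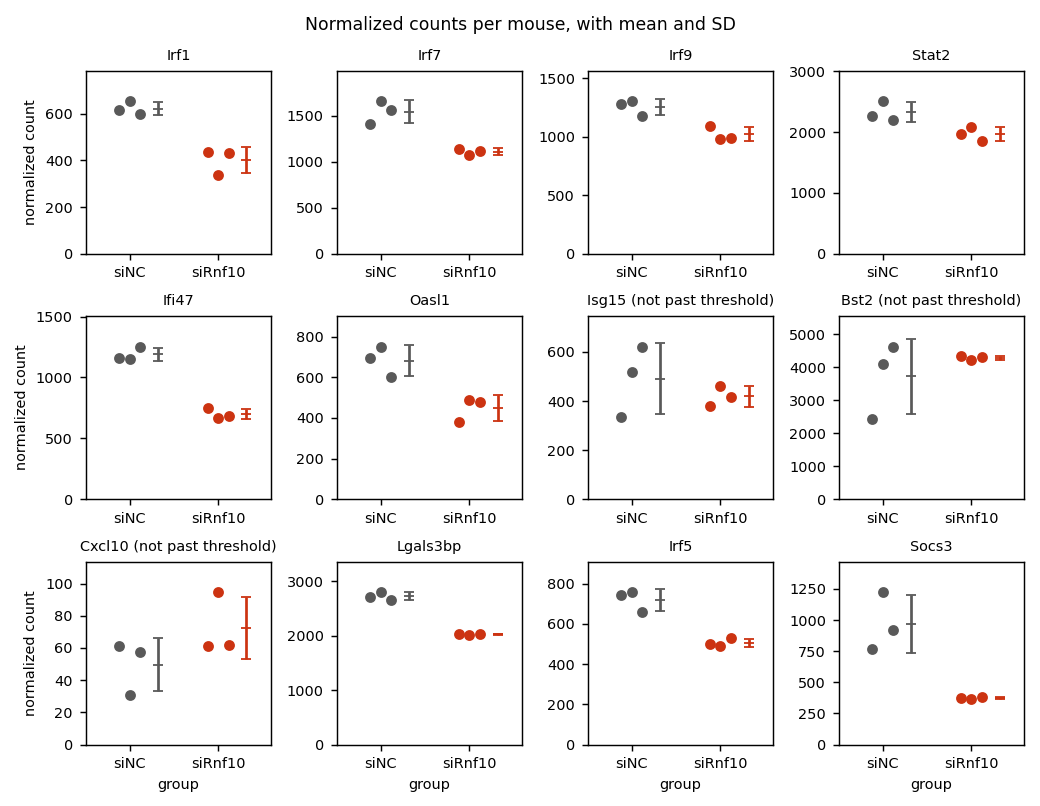
Normalized counts per mouse (points) with the group mean and SD (bars, n = 3) for the 4 transcription factors, other members and the signalling genes Irf5 and Socs3; each vertical axis starts at 0. The groups do not overlap for the 4 factors, Ifi47, Oasl1, Irf5 and Socs3, and they overlap for Isg15 and Bst2, where GalNAc-siNC-treated mouse 1 is the lowest point.

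Of the 6 GTPase genes, 2 fell and 0 rose, and 5 had a negative log2 fold change. Ifi47 (ENSMUSG00000078920, chromosome 11, 49076587 to 49096974, plus strand) encodes an immunity-related GTPase of the IRG family and showed the largest fall of all 45 members. Its normalized counts were 1161, 1153 and 1253 with GalNAc-siNC and 746, 668 and 685 with GalNAc-siRnf10, which was 41.2% lower (log2 fold change -0.77, standard error 0.0814, adjusted p = 4.33e-06). Spread within groups was 4.66% and 5.85% of the mean, so the groups stood far apart.

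Irgm1 encodes a regulatory IRG GTPase that acts on lysosomes and other membranes. It had 2309, 2303 and 2177 normalized counts against 1907, 1816 and 1852, a fall of 17.9% (adjusted p = 0.00762). Igtp, another regulatory IRG GTPase, had 1211, 1216 and 1251 against 1206, 1199 and 1100, with a 95% interval of the log2 fold change from -0.23 to 0.087. Igtp shares 162 bases with Irgm2 on the same strand, and its value is uncertain to that extent.

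The guanylate-binding protein genes Gbp2, Gbp3 and Gbp7 did not pass the threshold. Their log2 fold changes were -0.20, -0.32 and 0.062 with standard errors of 0.199, 0.148 and 0.141. For Gbp3, silenced mouse 2 was low, at 153 against 233 and 215 normalized counts in the other silenced mice.

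Of the 5 sensor genes, 2 fell, and the log2 fold changes of all 5 were negative. Zbp1, which encodes a sensor of Z-form nucleic acid that can trigger necroptosis, had 474, 451 and 465 normalized counts with GalNAc-siNC and 333, 307 and 286 with GalNAc-siRnf10, which was 33.3% lower (log2 fold change -0.59, standard error 0.105, adjusted p = 0.001). Dhx58 encodes LGP2, the regulator of the RIG-I-like receptors, and had 440, 518 and 422 against 309, 292 and 371 (log2 fold change -0.51, adjusted p = 0.00902). In both genes each control mouse was above each silenced mouse.

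The other sensors were close to the threshold or farther from it. Ifih1, the gene of MDA5, had 1954, 1699 and 1773 normalized counts against 1521, 1615 and 1503 (log2 fold change -0.23, adjusted p = 0.0523). It was called in 7 of the 15 other fits. Eif2ak2, the gene of the double-stranded RNA kinase PKR, and Ddx58, the gene of RIG-I, had log2 fold changes of -0.22 and -0.20, with adjusted p of 0.158 and 0.183.

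Among the 20 antiviral effectors, 6 fell, 0 rose, and 14 had a negative log2 fold change, with a class median of -0.18. Helz2 encodes a helicase that serves as a nuclear receptor coactivator. It was the most precisely measured effector, with 4010, 4113 and 3741 normalized counts against 2752, 2772 and 2809, which was 29.8% lower (log2 fold change -0.51, standard error 0.0634, adjusted p = 2.56e-05). Oasl1, which encodes an oligoadenylate synthetase-like protein without synthetase activity, had 694, 752 and 601 against 378, 490 and 480 (log2 fold change -0.60, adjusted p = 0.00176). Silenced mouse 1 was the lowest for Oasl1, but all 3 silenced mice were below the controls.

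Ifi44 fell by 34.4%, from 172, 149 and 170 to 98.3, 115 and 109 normalized counts (adjusted p = 0.0129). Xaf1, the gene of a proapoptotic antagonist of XIAP, fell by 25.2% (296, 317 and 272 against 231, 229 and 202, adjusted p = 0.0291). Mx2 and Rtp4 were the least secure calls of the class. Mx2, a dynamin-like GTPase gene, had 227, 245 and 215 against 164, 167 and 188 (adjusted p = 0.0496), and Rtp4, a gene of a receptor transporter protein with antiviral activity, had 499, 481 and 537 against 405, 385 and 431 (adjusted p = 0.0469). DESeq2 called neither. Rtp4 also shares 296 bases with Gm45338, which held about 120 counts per library.

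The effectors that gave no call included all the listed IFIT genes, of a family with proteins that bind viral RNA lacking host cap marks. Ifit1 had 620, 522 and 476 normalized counts with GalNAc-siNC and 467, 482 and 439 with GalNAc-siRnf10 (log2 fold change -0.22, adjusted p = 0.203). Ifit3 had 406, 443 and 402 against 376, 480 and 400, with a log2 fold change of 0.0093 and a 95% interval from -0.23 to 0.25. Ifit2 and Ifit3b had log2 fold changes of 0.15 and -0.16 with standard errors of 0.192 and 0.190. Ifit3 and Ifit3b share part of their sequence: 18.6% and 16.0% of their 150-base windows occur in the other gene, so reads may have been split between them.

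The oligoadenylate synthetase genes Oas1a, Oas2 and Oas3, whose products activate RNase L, and Oasl2 also gave no call, with log2 fold changes of -0.12, 0.16, -0.34 and -0.31. For Oasl2 each silenced mouse was below each control mouse (149, 160 and 190 against 144, 127 and 131 normalized counts), and the adjusted p was 0.201. Oas1a shares 32.4% of its 150-base windows with Oas1g, so its value is uncertain.

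Rsad2, the gene of viperin, had 326, 236 and 264 normalized counts against 337, 308 and 265 (log2 fold change 0.13, standard error 0.138). Its chromosomal neighbour Cmpk2, a nucleotide kinase gene, had a log2 fold change of -0.076 and Mx1 one of -0.021. Samd9l and Ifi35 had log2 fold changes of -0.20 and 0.091, with adjusted p of 0.200 and 0.663.

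Bst2, the gene of tetherin, had control mice that disagreed. It had 2434, 4103 and 4625 normalized counts with GalNAc-siNC and 4327, 4213 and 4314 with GalNAc-siRnf10. The log2 fold change was 0.20 with a standard error of 0.256, and it was -0.028 when control mouse 1 was left out. At 903 bases Bst2 is one of the shortest members, and that control library was low in short genes as a whole. The part of gene length in the Bst2 value of control mouse 1 was not tested.

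Of the 8 genes of the ISG15, ubiquitin and ADP-ribose system, 2 fell and 7 had a negative log2 fold change. Herc6 encodes the ligase that attaches ISG15 in the mouse, and it had 567, 493 and 521 normalized counts with GalNAc-siNC and 397, 352 and 416 with GalNAc-siRnf10, which was 26.4% lower (log2 fold change -0.44, adjusted p = 0.00875). Rnf213 encodes a giant ubiquitin ligase and fell by 15.7% (2987, 2775 and 2590 against 2343, 2486 and 2215, adjusted p = 0.0313). Both genes were lower in each silenced mouse than in each control mouse.

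Isg15, the gene of the modifier itself, was not called. It had 333, 520 and 622 normalized counts with GalNAc-siNC and 378, 463 and 417 with GalNAc-siRnf10. The log2 fold change was -0.22 with a standard error of 0.221. It is the shortest member, at 703 bases. As for Bst2, the lowest control value came from mouse 1, and the part of gene length in it was not tested. Without that mouse Isg15 was called, with a log2 fold change of -0.44. Usp18, which encodes the protease that removes ISG15 and also restrains the type I receptor, had 460, 446 and 489 against 502, 480 and 506, with a 95% interval of the log2 fold change from -0.11 to 0.30.

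Parp9, Dtx3l and Parp14 encode partners in ADP-ribosylation and ubiquitination. Parp9 had 2249, 1925 and 2117 normalized counts against 1667, 1878 and 1830 (log2 fold change -0.23, adjusted p = 0.0586), Parp14 a log2 fold change of -0.18 (adjusted p = 0.147) and Dtx3l one of -0.15 (adjusted p = 0.207). Dtx3l and Parp9 overlap by 458 bases on opposite strands, and whether the counting used the strand is not given in the sources used here. Trim30a had a log2 fold change of -0.21 (standard error 0.152).

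Of the 2 genes of secreted proteins, 1 fell. Lgals3bp encodes a secreted glycoprotein that binds galectins, and it had 2709, 2805 and 2666 normalized counts with GalNAc-siNC and 2033, 2019 and 2026 with GalNAc-siRnf10. It was 25.7% lower (log2 fold change -0.43, standard error 0.0637, adjusted p = 0.000171). Cxcl10, the gene of a chemokine for activated T cells, had 60.9, 30.9 and 57.3 against 61.0, 94.7 and 61.8. Silenced mice 1 and 3 lay just above the highest control mouse and mouse 2 well above it, but the 95% interval of the log2 fold change ran from -0.033 to 1.11 and the adjusted p was 0.216.

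Members at a low level were measured less precisely. Of the 12 members with a mean normalized count under 200, 1 was called (Ifi44), and of the 33 with a higher mean, 16 were. Over all tested genes 14.0% were called, and this share was not computed by level. The median standard error was 0.191 in the first set and 0.0994 in the second. The part of level in the missing calls was not tested.

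**Figure D4:**
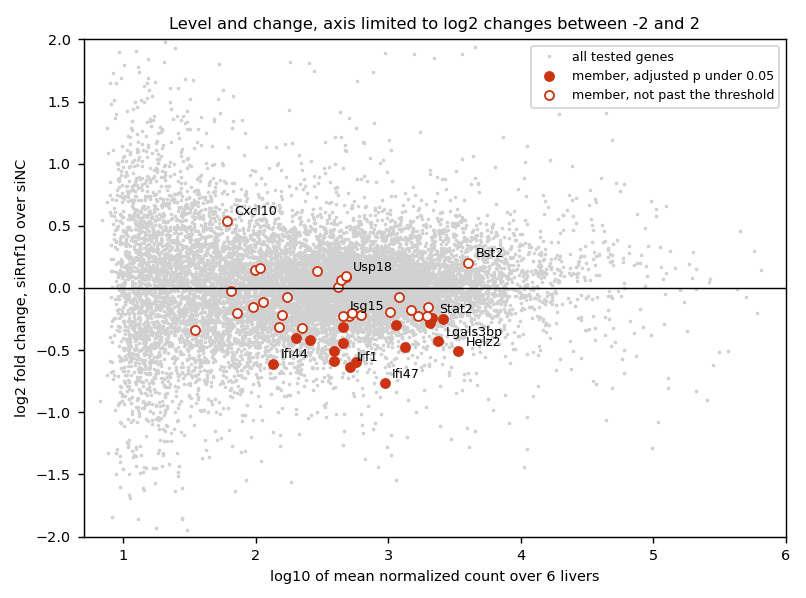
Mean normalized count over the 6 livers (horizontal, log10) and log2 fold change (vertical) of all tested genes (grey) and of the 45 members (red, filled where the adjusted p was under 0.05). The filled members lie between log2 fold changes of -0.77 and -0.24 and all but Ifi44 have a mean count of 200 or more; genes beyond log2 changes of 2 are not drawn.

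Per length, the members spanned a wide range in the control livers. Levels are given as TPM (transcript abundance corrected for length and scaled to a common total), computed from the deposited counts and gene lengths. Bst2 stood highest at 343 ± 94.0 TPM (SD, n = 3), followed by Lgals3bp at 80.4 ± 4.18, Isg15 at 58.2 ± 15.3, Igtp at 50.9 ± 1.43 and Ifi47 at 40.3 ± 1.28. Isg15 and Igtp did not differ beyond their spread. Parp9 (36.2 ± 3.89), Irf7 (34.3 ± 2.07), Stat2 (33.0 ± 2.67), Irgm1 (32.7 ± 2.31) and Dtx3l (31.0 ± 3.81) came next, and neighbours in this order lay within their spread. The lowest were Cxcl10 at 1.86 ± 0.638, Mx1 at 1.45 ± 0.143 and Oas3 at 0.464 ± 0.134 TPM. The member median was 13.1 TPM against 6.22 for all tested genes, and 29 of 45 members were above that median. In the silenced mice Ifi47 was at 22.1 ± 1.19 TPM and Igtp at 45.0 ± 1.73. TPM was not scaled by the TMM factors, and in the edgeR fit Igtp was 4.69% lower and not called (adjusted p = 0.604).

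Transcripts of the interferons themselves were not seen. Of 21 genes for type I, II and III interferons, 20 had 0 counts in every library and the other, Ifnk, had 1 count in 1 library. A count of 0 allows up to 3 counts, at most 1.12e-05% of a library, and this covers counting error only.

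Of 56 genes of the pathway upstream of the members, from a list written for this purpose, 31 were tested. Of these, 6 were lower and 1 was higher, so that 22.6% were called and 19.4% were called lower. The same shares over all tested genes were 14.0% and 7.28%. Neither Ifnar1 nor Ifnar2 passed the threshold (log2 fold changes -0.19 and -0.21, adjusted p 0.168 and 0.113), nor did the kinase genes Jak1, Jak2 and Tyk2. Of the receptor genes only Ifngr2, the signalling chain of the interferon gamma receptor, was called (835, 696 and 713 against 626, 578 and 584, log2 fold change -0.33, adjusted p = 0.0269).

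Irf5, a factor downstream of Toll-like receptors, had 742, 759 and 659 normalized counts against 500, 489 and 528 (log2 fold change -0.51, adjusted p = 0.00114). It was the only gene called of the 5 transcription factors in the pathway list. Tlr3, the endosomal receptor for double-stranded RNA, had 309, 193 and 247 against 174, 159 and 142 (log2 fold change -0.66, adjusted p = 0.0116). The adaptor gene Myd88 and the kinase gene Ikbke had log2 fold changes of -0.43 and -0.49, with adjusted p of 0.0132 and 0.00594. Mavs, the mitochondrial adaptor of RIG-I and MDA5, was the gene that rose, with 2146, 2111 and 2056 against 2522, 2673 and 2583 (log2 fold change 0.30, adjusted p = 0.00411).

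Socs3, which encodes an inhibitor of cytokine signalling that is itself induced by STAT3, showed the largest change of the list. It had 770, 1225 and 917 normalized counts with GalNAc-siNC and 375, 363 and 384 with GalNAc-siRnf10, which was 61.4% lower (log2 fold change -1.37, standard error 0.152, adjusted p = 0.000134). The silenced mice were close together and the controls were not.

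Markers of lymphocytes, monocytes and neutrophils were low in these livers and those of Kupffer cells were higher. The summed normalized count of 8 Kupffer cell markers was between 5731 and 6873 with GalNAc-siNC and between 6247 and 6732 with GalNAc-siRnf10 (exact permutation p = 0.9), and 0 of the 8 were called. Sums of T and NK cell markers (17.4 to 27.7 against 21.0 to 24.9, 6 genes), B cell markers (23.5 to 35.6 against 25.6 to 42.1, 3 genes) and monocyte markers (39.2 to 54.3 against 29.4 to 42.1, 3 genes) overlapped between groups, and 3 of the T and NK cell genes (Cd8a, Klrb1c and Ncr1) were at 0 in at least 1 library. Plasmacytoid dendritic cells are a main source of type I interferon, and their 2 markers summed to between 23.7 and 30.6 with GalNAc-siNC and between 12.4 and 22.9 with GalNAc-siRnf10. Siglech was not called (log2 fold change -0.60, adjusted p = 0.411).

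The 4 neutrophil markers summed to between 31.3 and 68.2 with GalNAc-siNC and between 21.0 and 21.5 with GalNAc-siRnf10. Most of this sum was S100a9 (22.6, 46.4 and 45.5 against 15.8, 11.5 and 14.9), the only gene of the 4 that was tested. S100a9 fell (log2 fold change -1.43, adjusted p = 0.0171, called in 10 of the 15 other fits), and Ly6g never exceeded 2 counts and was, like Retnlg, at 0 in at least 1 library. Of 5 sinusoidal endothelial markers, which summed to between 1679 and 1685 against between 1742 and 1845, Lyve1 and Clec4g were higher (log2 fold changes 0.55 and 0.52). Lyve1 was called in only 6 of the 15 other fits, and Stab2 had a log2 fold change of -0.26 with an adjusted p of 0.0544. The 4 hepatocyte markers summed to between 1415787 and 1506444 against between 2139986 and 2218895. Most of this sum was Alb, with group means of 1159000 and 1805600. Alb and Ttr were higher (log2 fold changes 0.64 and 0.66), while Apoa1 and Asgr1 were not called. The exact permutation p was 0.1 for the sums of the dendritic cell, neutrophil, endothelial and hepatocyte lists, the smallest that 3 against 3 allow. The part of these cell markers in the fall of the interferon-stimulated genes was not tested.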

How the data were processed

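Liver RNA of 3 GalNAc-siNC-treated and 3 GalNAc-siRnf10-treated mice was measured. The authors prepared stranded mRNA libraries, mapped paired-end reads with HISAT2 to GRCm38 (mm10) and deposited raw counts per gene with a length for each gene model; per the submitters' notes they also used DESeq2. The counting tool, annotation release and strand setting are not given in the sources used here. Symbols and coordinates were taken from GENCODE M21, which named 55141 of 55487 identifiers.

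From these counts, filterByExpr, TMM and a robust quasi-likelihood fit were run in edgeR 4.0.16 (R 4.3.3) over all 6 libraries with treatment as the only term, and p-values were adjusted by Benjamini-Hochberg over 14046 genes. Total counts of 26854377 to 33058645 and a biological coefficient of variation of 9.28% set the precision. The fit was tested on simulated data. The members and lists were chosen with earlier results of these data known. Every member, Rnf10, the called genes of the pathway and other interferon-stimulated gene lists, and the sums and called genes of the marker lists are named; Siglech, Stab2, Cd8a, Klrb1c, Ncr1, Retnlg, Apoa1, Asgr1, Ly6g, Jak1, Jak2, Tyk2, Ifnar1, Ifnar2 and Ifnk were named in addition, after their values were seen. Alternatives were RLE and upper quartile scaling, other filters on low counts, DESeq2 1.42.0, limma 3.58.1 voom with quality weights, a replicate block, other thresholds and leaving out each mouse. Corrections for length and GC content (a spline with 5 degrees of freedom) were added after seeing the data. 1 gene of the pathway list is not reported here by name.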

Additional observations from a re-analysis of the deposited data

How the results depend on the processing

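With 3 mice a group, the depth and the spread between mice limit calls to moderate changes. Leaving out 1 mouse gave between 8 and 18 members called, all lower, and between 1053 and 2864 genes called in all. At an adjusted p under 0.01, 10 members were called, all 10 lower, and 1042 genes in all. The replicate block, which pairs mice that share only a number (correlations of their deviations -0.000993, 0.0272 and -0.0337), gave 15 members and 1816 genes, DESeq2 15 and 1912, limma voom 19 and 2311, no filter on low counts 18 and 2324, and the length and GC correction, chosen after seeing the data, 22 and 2471, or 21 and 2360 with the replicate block (Ifih1, Ifit1, Isg15 and Parp9 were gained in both). No alternative called a member higher. Among members that were not called, the sign of the log2 fold change turned for Ifit3 with upper quartile scaling (-0.00049), the length and GC correction (-0.14) and that correction with the block (-0.15). It also turned in fits without 1 mouse, whose values ran from -0.10 to 0.080 for Ifit3, -0.22 to 0.039 for Oas1a, -0.026 to 0.29 for Oas2, -0.063 to 0.029 for Mx1, -0.17 to 0.079 for Cmpk2, -0.028 to 0.39 for Bst2, -0.018 to 0.18 for Ifi35 and -0.066 to 0.25 for Gbp7. The cause of these turns was not tested, and the fits without 1 mouse also had fewer mice. Of the 10 most abundant members per length, 6 were also among the 10 most abundant without the length correction.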

Other observations

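A further list of 60 interferon-stimulated genes outside the 45 members was read from the same fit, and 58 were tested. Of these, 10 were lower and 0 were higher past the same threshold in edgeR, which is 17.2% of those tested. Among all tested genes, 14.0% were called and 7.28% were called lower, and among the 45 members 37.8% were called lower. The median log2 fold change was -0.07 for this list, against -0.22 for the members and 0.0022 for all tested genes. Ly6e, which encodes a surface protein that restricts coronaviruses, had 10244, 9472 and 10127 normalized counts with GalNAc-siNC and 6365, 6770 and 6487 with GalNAc-siRnf10 (log2 fold change -0.60, adjusted p = 1.07e-06). Pml, the organizer of nuclear bodies, had 862, 891 and 785 against 531, 556 and 501 (log2 fold change -0.68, adjusted p = 5.45e-05). In both genes the groups were far apart.

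Uba7 and Ube2l6, the genes of the enzymes that activate and carry ISG15, had log2 fold changes of -0.32 and -0.30 (adjusted p = 0.0394 and 0.00519). Uba7 was called in only 7 of 15 other fits and Ube2l6 in 13; the fit with the replicate block did not call Uba7. The IRG GTPase genes Iigp1 and Irgm2 had log2 fold changes of -0.23 and -0.28, and Ddx60, Znfx1, Shisa5 and Parp12 of -0.58, -0.34, -0.34 and -0.24. Parp12 was called in 9 of the 15 other fits and not with the replicate block. The other 48 tested genes, 27 of them with a negative log2 fold change, did not pass the threshold.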
